A study of Mus musculus with 10 samples.

Results

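Club cells are the secretory cells of the mouse airway lining. The 10 genes described here, Scgb1a1, Scgb3a1, Scgb3a2, Cyp2f2, Cyp4b1, Aldh1a7, Cbr2, Hp, Bpifa1 and Muc5b, were chosen by name as their secretory and metabolic genes. Every probe set that the platform annotation assigns to 1 gene symbol among these was taken, which gave 1 probe set for each gene. They were 10 of 34945 probe sets with 1 symbol and 10 of 13382 genes bright enough to be tested, and all 10 passed the filter on dim probe sets. Whole-lung RNA of C57BL/6J mice, 2 weeks old, was hybridised to Affymetrix Mouse 430 2.0 arrays at 1 mouse an array. The smoke group held 6 mice that spent time with their mother in a cigarette smoke chamber from the age of 1 day, for 1 hour daily over 7 days and then 2 hours daily over 7 days. Chamber particulates averaged 90 mg per cubic metre. For control, 4 mice were housed separately in filtered air. Sex is given as unknown and no litter is named, so each p-value reflects spread among arrays, which may be partly technical. Mice of a group may share a litter, so arrays may not be independent. Effects of smoke and of litter cannot be told apart.

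Club cells secrete small proteins of the secretoglobin family onto the airway surface, and Scgb1a1, also called club cell secretory protein, is the one by which the cells are usually recognised. In mice they also carry much of the lung's cytochrome P450 activity, which turns inhaled chemicals such as naphthalene into reactive products. They serve as progenitors for ciliated cells, and they add mucins and antimicrobial proteins to the airway lining. Several genes of this set are not particular to them: Cbr2, Hp and Cyp4b1 are also known from alveolar type 2 or other lung cells. Because RNA came from the whole lung, fewer cells of a type and less RNA per cell cannot be told apart. Precision is limited by how few arrays there are.

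None of the 10 genes was called higher or lower after smoke. With limma over all probe sets tested, 0 of 10 passed at an adjusted p under 0.05, against 0.725% of all genes, namely 0.702% lower and 0.0224% higher. At an unadjusted p under 0.05 the count was also 0 of 10, against 10.2% of all genes. The log2 changes, smoke minus control, ran from -0.35 for Cyp4b1 to 0.38 for Scgb3a1. Their median was 0.14, beside 0.056 over all genes, and 8 were above 0 and 2 below. The 95% intervals differed widely in width, from -0.14 to 0.20 for Scgb1a1 and from -1.56 to 1.82 for Bpifa1. The narrow interval of Scgb1a1 holds for the normalized scale, and its changes on the deposited and median-centred scales, 0.29 and 0.21, lie outside it. Cyp1b1, a cytochrome P450 known to be induced through the aryl hydrocarbon receptor, rose after smoke by 2.18 ± 0.39 (log2 change ± SE; limma, adjusted p = 0.0261).

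**Figure D1:**
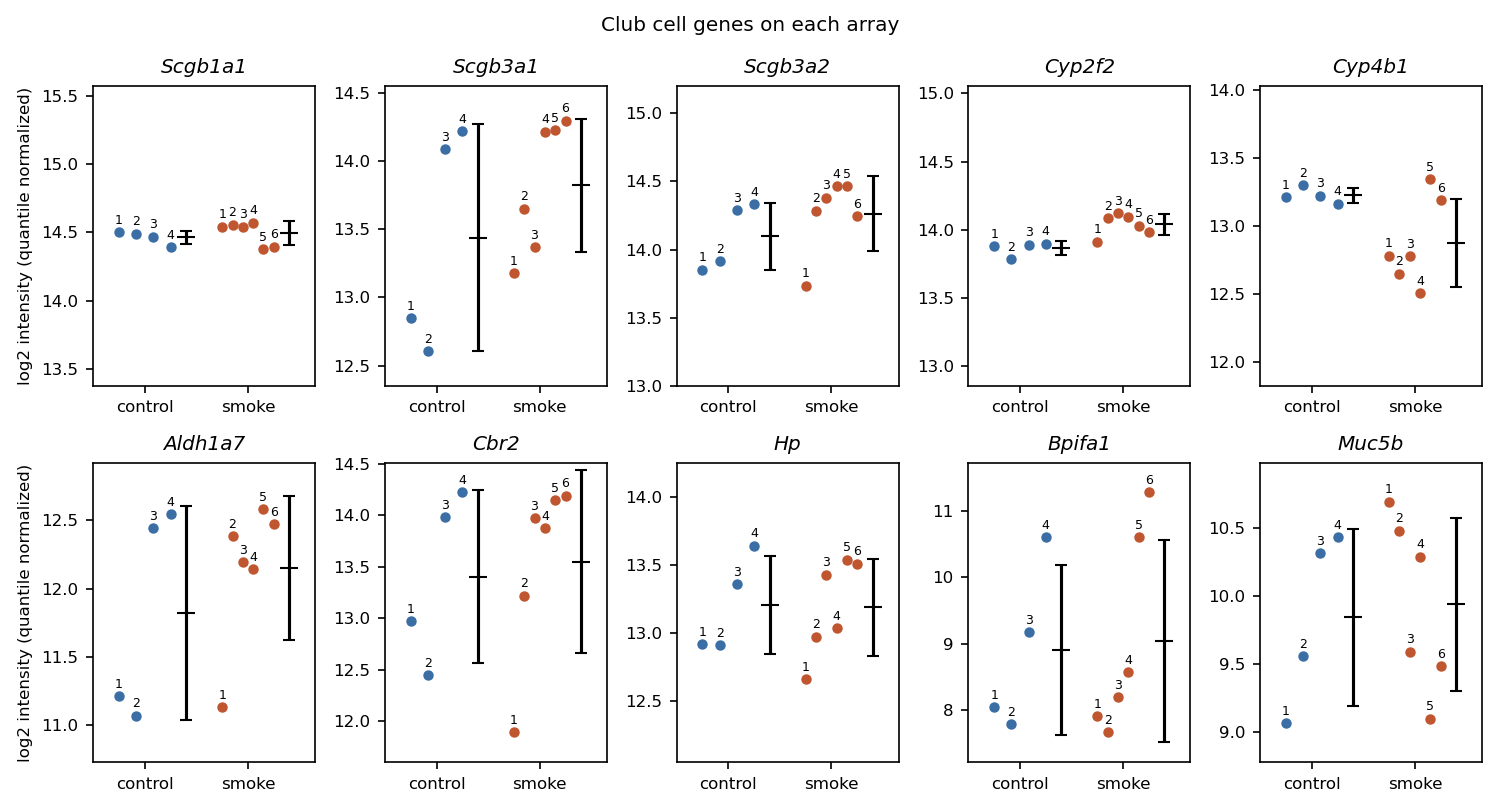
Quantile-normalized log2 intensity of the 10 club cell genes on each array. Points are mice, numbered as in the labels, with control in blue and smoke in orange, and the bars beside them give the mean and SD. Each panel has its own axis and spans at least 2.2 log2 units. Scgb1a1 and Cyp2f2 vary least, Bpifa1 varies most, and for Cyp4b1 smoke arrays 1 to 4 lie below the controls.

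Some properties of single arrays touch the results below. The ratio of the actin control probe sets at the 3' and 5' ends, a sign of RNA quality, ran from 3.96 to 10.4 in controls. It was 31.6 and 29.4 on smoke arrays 1 and 2, 9.26 and 10.3 on smoke arrays 3 and 4, and 2.18 and 2.98 on smoke arrays 5 and 6. Xist, an RNA made from the inactive X chromosome and used here as a marker of sex, was high on control arrays 2 and 4 and smoke arrays 5 and 6, at intensities of 12265 to 16285, and between 297.0 and 675.6 on the others. Keratin and cornification genes of squamous lining, Krt13 and Sprr3, stood out on control array 1 and smoke array 5, at log2 intensities of 10.47 and 10.86 on the first and 10.19 and 11.63 on the second. On the other arrays Krt13 lay at 7.44 or lower and Sprr3 at 7.49 or lower.

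The RefSeq promoter table, build GRCm38.p6, matched 6 of the 10 genes: Scgb3a1, Cyp2f2, Cyp4b1, Aldh1a7, Cbr2 and Bpifa1. Shown here are the 250 bases before the start of Scgb3a1, Aldh1a7 and Cbr2, which were lowest on the same arrays (described further on), and of Aldh1a1, the paralog of Aldh1a7 on the same chromosome. Capitals mark matches, on either strand, to any of 8 strings searched: TGTTTAC and TGTTTGC of forkhead factors, CTCAAG and CACTTG of NKX2-1, TTGCNNAA of C/EBP factors, the glucocorticoid receptor half-site AGAACA, the TATA box TATAAA and GCGTG of the xenobiotic response element. The regions are chr11:49663345-49663594 (+ strand) for Scgb3a1, chr19:20727557-20727806 (- strand) for Aldh1a7, chr11:120732022-120732271 (- strand) for Cbr2 and chr19:20601718-20601967 (+ strand) for the second of the table's start sites of Aldh1a1.
Scgb3a1: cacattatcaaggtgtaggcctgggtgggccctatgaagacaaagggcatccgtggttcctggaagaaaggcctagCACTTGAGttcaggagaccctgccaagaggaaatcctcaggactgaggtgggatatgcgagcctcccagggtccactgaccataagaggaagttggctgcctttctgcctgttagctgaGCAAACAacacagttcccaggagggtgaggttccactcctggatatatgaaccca
Aldh1a7: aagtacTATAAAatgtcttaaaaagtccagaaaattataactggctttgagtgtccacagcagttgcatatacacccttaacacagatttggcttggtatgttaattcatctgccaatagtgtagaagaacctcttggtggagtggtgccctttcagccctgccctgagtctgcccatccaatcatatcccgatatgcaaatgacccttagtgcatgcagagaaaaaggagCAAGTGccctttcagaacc
Cbr2: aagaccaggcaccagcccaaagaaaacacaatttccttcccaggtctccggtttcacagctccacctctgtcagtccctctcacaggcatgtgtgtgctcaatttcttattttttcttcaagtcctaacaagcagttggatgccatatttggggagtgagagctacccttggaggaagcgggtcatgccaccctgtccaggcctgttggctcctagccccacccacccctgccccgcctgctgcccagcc
Aldh1a1: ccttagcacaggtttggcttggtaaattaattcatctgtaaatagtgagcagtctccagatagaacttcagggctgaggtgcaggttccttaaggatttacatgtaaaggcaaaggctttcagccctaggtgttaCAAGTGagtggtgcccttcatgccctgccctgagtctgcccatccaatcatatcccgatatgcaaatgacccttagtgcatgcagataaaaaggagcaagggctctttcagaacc

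In Scgb3a1, a match to CACTTG at 174 to 169 bases before the start overlaps one to CTCAAG on the other strand, and a match to TGTTTGC lies at 55 to 49 bases. CACTTG was also found in Cyp2f2, Aldh1a7 and that start of Aldh1a1, CTCAAG in Bpifa1, and TATAAA in Aldh1a7 and Bpifa1. The TATAAA match lay at 244 to 239 bases before the start in Aldh1a7 and at 29 to 24 bases in Bpifa1. AGAACA was found in Cyp4b1 and Bpifa1, and Cbr2 held none of the strings. Over all 32841 promoters of the table, 11.6% hold CACTTG, 13.3% CTCAAG, 4.30% TGTTTGC, 3.17% TGTTTAC, 9.57% TTGCNNAA, 16.1% AGAACA, 12.4% TATAAA and 28.2% GCGTG. Such matches describe these letters and are not evidence of binding. The Aldh1a7 and Aldh1a1 windows shown share 66.0% of 265 aligned positions, with an identical run of 65 bases that ends 30 bases before the Aldh1a7 start. Aligned in the same way, Aldh1a7 shared 50.9% with the window of the first Aldh1a1 start site. It shared 47.3% with Cbr2, 45.8% with Cyp2f2 and 47.5% with Scgb3a1. Whether the probes of either gene also take up RNA of the other was not tested.

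Among the secretoglobins, Scgb1a1 came closest to no change on the normalized scale, but that value rests on the normalization. As deposited, its intensity was 19400, 22794, 22192 and 17486 on control arrays 1 to 4. It was 45146, 37592, 22711, 28394, 14665 and 14979 on smoke arrays 1 to 6. Smoke arrays therefore spanned both sides of the controls, with 3 above every control (only smoke array 3 among arrays 1 to 4 fell short) and arrays 5 and 6 below every control. Scgb1a1 ranked between 9 and 33 among 45101 probe sets on every array, and quantile normalization gives the same value to the same rank, which holds the brightest probe sets nearly still. After it, controls averaged 14.46 ± 0.049 (SD, n = 4) and smoke arrays 14.50 ± 0.087 (SD, n = 6) in log2 intensity. The log2 change was 0.034 ± 0.078 (limma, adjusted p = 0.903), against 0.29 with values as deposited and 0.21 with each array centred on its median, neither of them called. Scgb1a1 thus differed by 3.08-fold between the highest and lowest array as deposited, and by 0.20 log2 units after normalization.

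**Figure D2:**
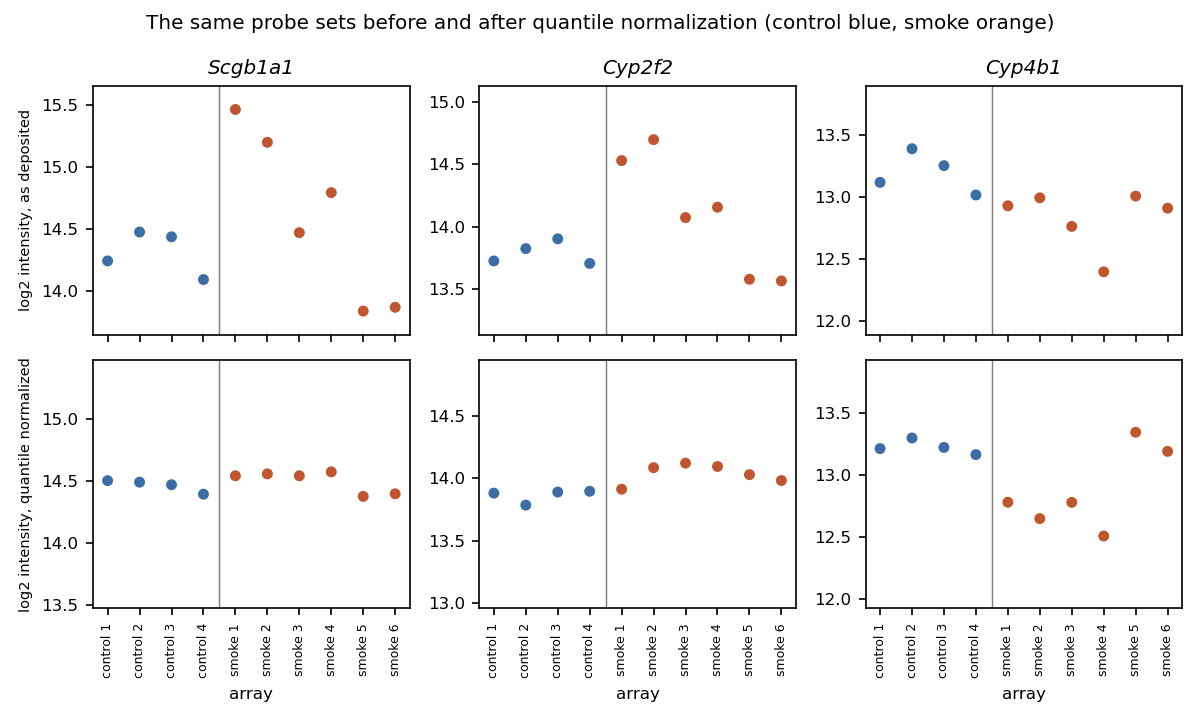
Log2 intensity of Scgb1a1, Cyp2f2 and Cyp4b1 on each array, as deposited in the upper row and quantile normalized in the lower row. All panels span 2 log2 units. The high Scgb1a1 and Cyp2f2 values of smoke arrays 1 and 2 in the upper row are levelled in the lower row, while smoke arrays 5 and 6 move into or above the control range for Cyp2f2 and Cyp4b1.

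Scgb3a1 and Scgb3a2 encode other secreted members of the secretoglobin family. Scgb3a1 had log2 intensities of 12.85, 12.60, 14.09 and 14.22 on control arrays 1 to 4. On smoke arrays 1 to 6 they were 13.18, 13.65, 13.37, 14.22, 14.23 and 14.30. The control arrays fell into a low and a high pair, smoke arrays 1, 2 and 3 lay between these pairs, smoke array 4 lay within the high pair, and smoke arrays 5 and 6 lay above every control. The log2 change of 0.38 ± 0.35 (adjusted p = 0.734) lay within that spread, and its interval ran from -0.38 to 1.14. Scgb3a2 had log2 intensities of 13.85, 13.92, 14.29 and 14.33 in controls and from 13.73 to 14.46, with a median of 14.33, after smoke. The same control pair was low, smoke array 1 was lower still, and the log2 change was 0.16 ± 0.16 (adjusted p = 0.744).

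Cyp2f2 encodes the cytochrome P450 that activates naphthalene in mouse club cells. Its log2 intensity was 13.88, 13.78, 13.89 and 13.90 on control arrays 1 to 4. On smoke arrays 1 to 6 it was 13.91, 14.09, 14.12, 14.10, 14.03 and 13.98. All 6 smoke arrays lay above every control array, by a narrow margin at smoke array 1, and Cyp2f2 was the 1 gene of the 10 whose groups did not overlap, against 4.09% of all genes. The log2 change was 0.18 ± 0.083, or 1.13-fold (limma, unadjusted p = 0.0563, adjusted p = 0.511), with an interval from -0.0056 to 0.36. An exact two-sided permutation test gave p = 0.00952, where 0.00476 is the smallest that 4 against 6 arrays allow. It was the only one of the 10 genes under 0.05 in that test, in which 10.4% of all genes were, and it did not pass after adjustment over all genes (adjusted p = 0.292). As deposited the groups overlapped, with control intensities of 13336 to 15297 and smoke intensities of 12095 to 26600. On that scale 4 smoke arrays lay above every control and smoke arrays 5 and 6 below (exact permutation p = 0.238).

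Cyp4b1, a P450 that oxidises fatty acids and activates some plant and aromatic toxins, had the lowest change of the set. In log2 intensity it stood at 13.21, 13.30, 13.22 and 13.16 on control arrays 1 to 4. On smoke arrays 1 to 6 it was 12.78, 12.65, 12.78, 12.51, 13.34 and 13.19. Smoke arrays 1 to 4 lay below every control, and arrays 5 and 6 lay among or above them. The log2 change was -0.35 ± 0.16 (limma, unadjusted p = 0.0536, adjusted p = 0.506; exact permutation p = 0.100). As deposited all 6 smoke arrays, at intensities of 5387 to 8218, lay below the 4 controls, at 8269 to 10704 (exact permutation p = 0.00952), where 4.14% of all genes had groups that did not overlap. Without smoke arrays 5 and 6 the log2 change was -0.54 ± 0.10 and passed (adjusted p = 0.0161), as the 1 call among the 10 genes, in a fit that called 5.58% of all genes and 2.43% lower. With a replicate block, which sets the same arrays aside, it was -0.54 ± 0.11 (adjusted p = 0.0301), where 2.55% of all genes were lower.

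Smoke arrays 5 and 6, on which normalized Cyp4b1 was not below the controls, were also the smoke arrays high in Xist and lowest in the actin ratio. That split of the smoke arrays depends on the normalization. As deposited Cyp4b1 was at 8218 and 7682 on smoke arrays 5 and 6, within reach of 7785 and 8140 on smoke arrays 1 and 2. With each array centred on its median, smoke array 2, at 13.11, lay above control array 4, at 13.04. The fits that omit arrays or include Xist used normalized values. In a fit with a term for high or low Xist, chosen after seeing the data, the log2 change of Cyp4b1 was -0.54 ± 0.12 among low-Xist arrays (2 control, 4 smoke). Among high-Xist arrays (2 and 2) it was 0.036 ± 0.14. The difference between these effects was 0.57 ± 0.19 and did not pass (limma, unadjusted p = 0.0125, adjusted p = 0.264), and 0.00747% of all genes passed that test, namely 1. Fitting the actin ratio beside smoke gave an overall change of -0.32 ± 0.11 (adjusted p = 0.181). Sex, RNA quality and any unlabelled batch of smoke arrays 5 and 6 cannot be told apart here.

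**Figure D3:**
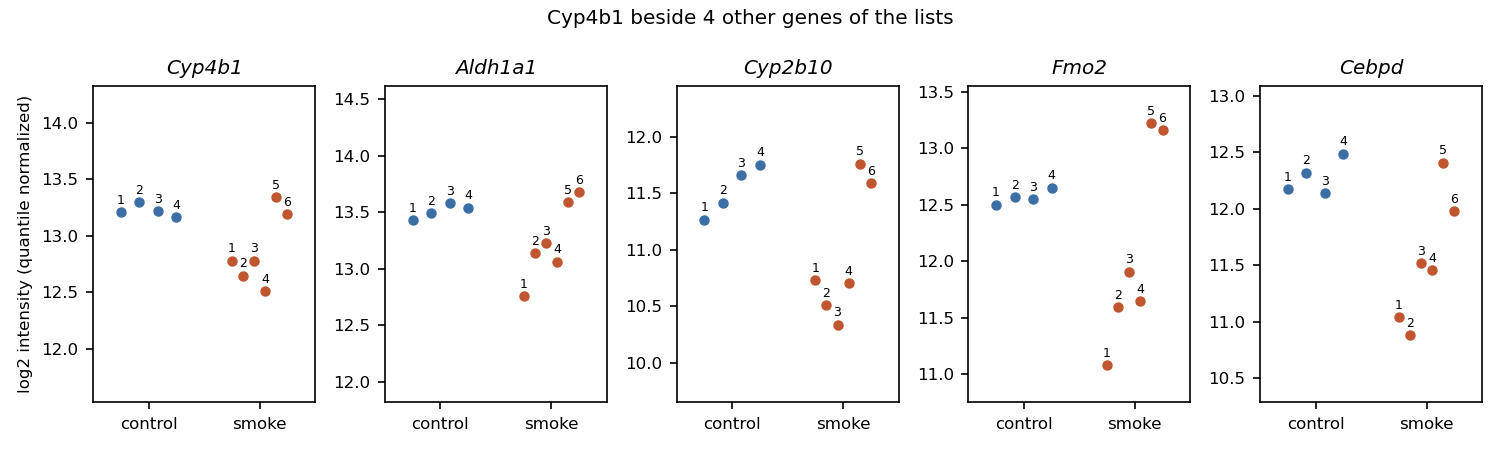
Quantile-normalized log2 intensity of Cyp4b1 and of Aldh1a1, Cyp2b10, Fmo2 and Cebpd on each array, with points numbered as in the labels, control in blue and smoke in orange. Every panel spans 2.8 log2 units. In each panel smoke arrays 1 to 4 lie below all 4 controls, and smoke array 5 does not.

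Some of the other club and secretory cell genes had the same arrangement. Of 24 tested genes on that list, 0 rose and 0 fell over all arrays, and the median log2 change was -0.053. At an unadjusted p under 0.05 there were 3, against 10.2% of all genes. By the order of p they began with Sult1d1, a sulfotransferase, at -0.79 ± 0.26 (adjusted p = 0.324), Cyp2s1, a P450 of epithelia, at 0.51 ± 0.22 and Hes1, a Notch target, at 0.48 ± 0.22. Cyp2b10, a P450 known for its induction by phenobarbital in mouse liver, was at -0.58 ± 0.28. In 5 of the 24, namely Aldh1a1, Cyp2b10, Ephx1, Fmo2 and Sult1d1, smoke arrays 1 to 4 lay below every control and arrays 5 and 6 did not, against 4.94% of all genes. That pattern was looked for after the values were seen. It held for 0 of 18 alveolar type 2 cell markers and 1 of 24 ciliated cell markers. It was not particular to club cell genes, since it also held for Clic5 of the type 1 list and Mrc1 of the macrophage list. Muc16 of the goblet list and Myh6 of the heart list had it too. Without smoke arrays 5 and 6, 3 of the 24 fell: the flavin monooxygenase Fmo2 at -1.01 ± 0.17, Cyp2b10 at -0.95 ± 0.17 and the retinaldehyde dehydrogenase Aldh1a1 at -0.46 ± 0.11 (limma, adjusted p = 0.0109, 0.0134 and 0.0476). That fit called 2.43% of all genes lower. All 3 are among the 5 genes named for the pattern, which favours a call once these arrays are left out, so the calls are not separate evidence.

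Fmo2 values split within the smoke group. Its log2 intensity was between 12.50 and 12.65 in controls, between 11.08 and 11.91 on smoke arrays 1 to 4, and 13.22 and 13.16 on smoke arrays 5 and 6. The last 2 thus lay above every control and the first 4 below. Over all 6 smoke arrays its log2 change was -0.46 (adjusted p = 0.707).

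Aldh1a7, an aldehyde dehydrogenase close to Aldh1a1, did not follow its paralog. Control arrays 1 to 4 gave log2 intensities of 11.21, 11.07, 12.45 and 12.54. On smoke arrays 1 to 6 it was 11.13, 12.38, 12.19, 12.14, 12.58 and 12.47. It was low on control arrays 1 and 2 and smoke array 1 and high on all others, with no separation of smoke from control (log2 change 0.33 ± 0.35, adjusted p = 0.773). Aldh1a1 stood between 13.43 and 13.58 on all 4 controls, so the pair of low controls was not seen for it.

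Cbr2, a carbonyl reductase of mouse lung, had the same low arrays with a wider range. It had log2 intensities of 12.97, 12.44, 13.98 and 14.22 on control arrays 1 to 4. On smoke arrays 1 to 6 it was 11.89, 13.22, 13.98, 13.88, 14.15 and 14.19. The lowest and highest array differed by 4.67-fold as deposited, and both extremes were reached inside the groups. The log2 change was 0.15 ± 0.47 (adjusted p = 0.930), with an interval from -0.88 to 1.17. It was -0.17 without control replicate 2 and -0.17 without smoke arrays 5 and 6, and neither was called.

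Hp encodes haptoglobin, which binds free haemoglobin. Its log2 intensity was 12.92, 12.91, 13.36 and 13.64 in controls and ran from 12.66 to 13.54, with a median of 13.23, after smoke. The groups overlapped fully, and the log2 change was -0.016 ± 0.21 (adjusted p = 0.987), with an interval from -0.47 to 0.44. On a list of 22 acute phase and haemoglobin scavenging genes, 12 were tested, 0 rose and 0 fell, 1 was at an unadjusted p under 0.05, and the median was -0.19. That 1 was Cebpd, a transcription factor of the acute phase, at -0.73 ± 0.27 (adjusted p = 0.396), and the next was the C-reactive protein gene Crp at 0.42 ± 0.25. Crp was dim, with deposited intensities of 69.4 to 200.9. Without smoke arrays 5 and 6 Cebpd fell by 1.05 on the log2 scale (SE 0.17).

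Bpifa1, a secreted antimicrobial protein of the upper and larger airways, varied most. As deposited its intensity was 254.1, 219.4, 557.6 and 1592 on control arrays 1 to 4. It was 294.3, 185.1, 298.7, 419.5, 1658 and 2610 on smoke arrays 1 to 6. The range was 14.1-fold, with control array 4 and smoke arrays 5 and 6 far above the rest, and these 3 arrays also had the lowest actin ratios. Smoke arrays 5 and 6 and control array 4 are all high in Xist, but control array 2, also high, was among the lowest. On the normalized scale the log2 change was 0.13 ± 0.78 (adjusted p = 0.968). It was -0.82 without smoke arrays 5 and 6 (adjusted p = 0.366), and over single omissions it went from -0.32 without smoke replicate 6 to 0.70 without control replicate 4, all uncalled.

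Muc5b, a gel-forming mucin of the airway, took another course across the arrays. Its log2 intensity was 9.07, 9.55, 10.31 and 10.43 on control arrays 1 to 4. On smoke arrays 1 to 6 it was 10.69, 10.48, 9.59, 10.29, 9.10 and 9.48. It was high on smoke arrays 1 and 2, where Bpifa1 was low, and low on smoke arrays 5 and 6, where Bpifa1 was high. The log2 change was 0.096 ± 0.37 (adjusted p = 0.943), and it was -0.16 without control replicate 1 and -0.23 without smoke arrays 1 and 2, again uncalled.

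**Figure D4:**
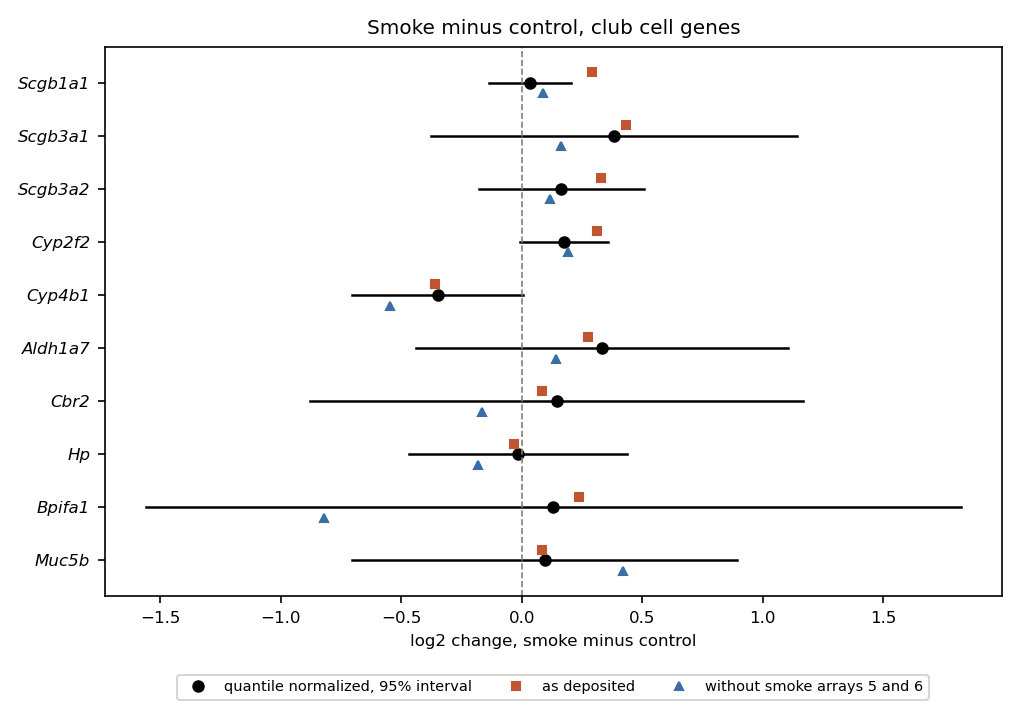
Log2 change, smoke minus control, of the 10 genes. Black points with lines give the quantile-normalized value with its 95% interval, orange squares the values as deposited, and blue triangles the values without smoke arrays 5 and 6. All intervals include 0, and that of Bpifa1 runs from -1.56 to 1.82.

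Low arrays were shared by several of these genes and came from both groups. For 5 of the 10, Scgb3a1, Scgb3a2, Aldh1a7, Cbr2 and Hp, the 3 lowest arrays were control 1, control 2 and smoke 1, an arrangement seen in 2.1% of all genes and looked for after the values were seen. Among alveolar type 2 cell markers it held for 9 of 18, including the surfactant protein gene Sftpa1, the protease gene Napsa and the transporter gene Slc34a2. It held for 4 of 24 other club and secretory cell genes, Pon1, Lypd2, Cckar and Cldn10, and for 2 of 24 ciliated cell markers. The mean log2 intensity of the type 2 markers was 12.16 and 12.15 on control arrays 1 and 2, 13.05 and 13.04 on control arrays 3 and 4, 11.39 on smoke array 1 and 12.52 to 13.05 on the other smoke arrays. The part of type 2 cell RNA in the values of these 5 genes was not tested. The actin ratio was 9.70, 10.4 and 31.6 on control arrays 1 and 2 and smoke array 1, and from 2.18 to 29.4 on the others, and its part was not tested either.

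**Figure D5:**
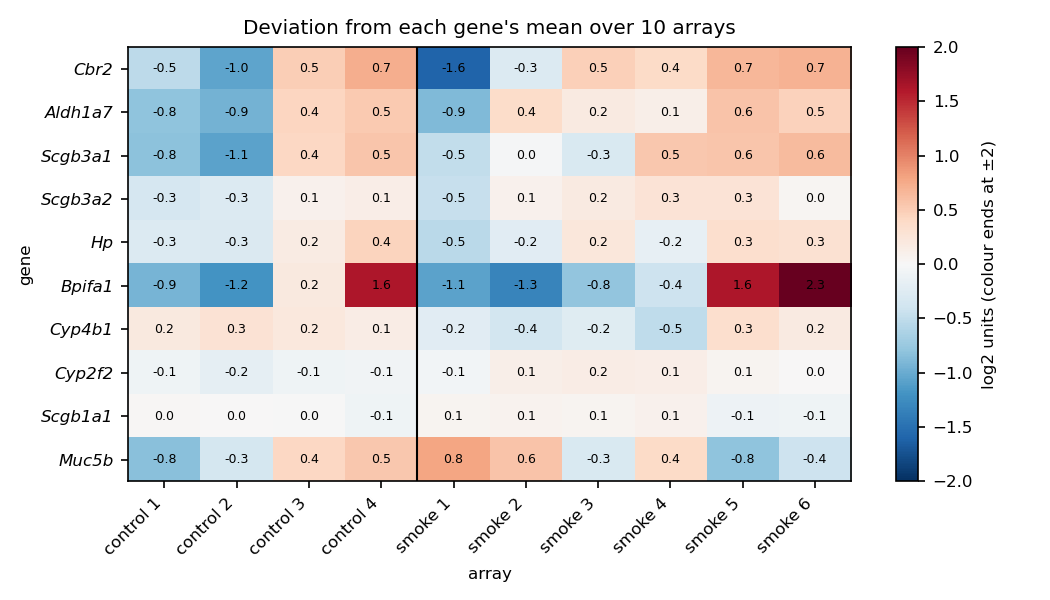
Deviation of each gene on each array from its own mean over the 10 arrays, in log2 units, on the quantile-normalized scale. The colour scale ends at 2 units in either direction, and 1 value, Bpifa1 on smoke array 6, lies beyond it. The upper 5 genes are below their means on control arrays 1 and 2 and smoke array 1, while Muc5b is above its mean on smoke array 1.

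The genes most like Scgb1a1 over the 10 arrays, by Pearson correlation of normalized log2 values, were Ywhaq (0.99), Hmgn1 (0.98), Appl1 (0.97), Cntd1 (0.97) and Rgs2 (0.96). By deviations from the group means they were Ywhaq (0.99), Fkbp15 (0.98) and Hmgn1 (0.98). For Cyp2f2 they were Thap12 (0.98), Fstl1 (0.94), Snx18 (0.93), Mthfd1 (0.93) and Hmgb3 (0.91), and by deviations Thap12 (0.96), Sema5b (0.93) and Mmp9 (0.93). None of these genes is on the club, goblet or ciliated lists, but Mmp9 is on the neutrophil list. The arrays compared share the normalization that holds bright probe sets nearly still. For Cbr2, chosen after its values were seen, the nearest were Dcxr (0.98), which encodes a related carbonyl reductase, Emb (0.97), Napsa (0.97), Sftpa1 (0.96) and Muc1 (0.95). The last 3 are on the type 2 list, but the other genes low on the same arrays differed. The 5 nearest of Aldh1a7 by level included Cldn10 (0.98) of the other club list and Elf5 (0.97) of the regulator list. Those of Scgb3a1 included Reg3g (0.95) of the goblet list. Those of Aldh1a7, Scgb3a1, Scgb3a2 and Hp held no gene of the type 2 list.

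Factors that act on airway secretory genes were not called in either direction, where 0.725% of all genes were. Of 24 tested regulators 0 rose and 0 fell, 3 were at an unadjusted p under 0.05, against 10.2% of all genes, and the median log2 change was -0.0095. After Cebpd the order of p gave the Notch ligand gene Jag1 at -0.44 ± 0.18, Hes1 and the transcription factor gene Cebpa at 0.70 ± 0.39, with adjusted p-values of 0.439, 0.497 and 0.564.

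Neighbouring cell types gave no call except for neutrophils. Over all genes 0.725% were called and 10.2% were at an unadjusted p under 0.05, so a count of 0 says little for lists this short. Goblet cell and mucus genes had 0 of 14 past the threshold in either direction, also at an unadjusted p under 0.05, and a median of 0.16. Tff3 and Tff2, small secreted trefoil proteins, came first at -0.87 ± 0.45 and 1.38 ± 0.97. Ciliated cell markers had 0 of 24 called and 1 at an unadjusted p under 0.05, with a median of -0.14, led by Ccdc39 at -0.56 ± 0.24 and Cfap43 at -0.71 ± 0.39. Their mean log2 intensity over the list was 8.53 to 9.15 in controls and 8.28 to 8.90 after smoke, and these ranges overlapped. Basal cell markers had 0 of 6 called, led by Krt14 at 0.55 ± 0.29 and Aqp3 at 0.55 ± 0.50, and neuroendocrine markers 0 of 3, led by Syp at 0.74 ± 0.30 and Uchl1 at -0.20 ± 0.35. Krt14, Aqp3, Syp and Uchl1 were dim, with deposited intensities between 34.6 and 332.1. Alveolar type 2 markers had 0 of 18 called, led by Cxcl15 at 0.23 ± 0.097 and Abca3 at 0.29 ± 0.20, and type 1 markers 0 of 12, led by Clic5 at -0.56 ± 0.27 and Aqp5 at 0.42 ± 0.23.

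Among other cells that whole lung tissue holds, 4 of 9 tested neutrophil markers fell, against 0.702% of all genes called lower. These markers were S100a9, S100a8, Mmp8 and Stfa2l1, at log2 changes of -1.995 ± 0.28, -1.60 ± 0.24, -1.39 ± 0.22 and -1.99 ± 0.39. The count of lower neutrophil markers was 2, 1 and 2 without control replicates 1, 2 and 3 in turn. The median log2 change of this list was -0.84, and neutrophils are known to store haptoglobin, the product of Hp. Macrophage and monocyte markers had 0 of 12 called, led by Chil3 at -0.40 ± 0.17 and Mrc1 at -0.67 ± 0.30. Of tissues that can be taken with the lung, 0 of 9 heart muscle, 0 of 5 liver and 0 of 4 thyroid and oesophagus markers were called, led by Myh6 at -1.19 ± 0.36, Alb at 0.19 ± 0.19 and Krt6a at -0.40 ± 0.66.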

How the data were processed

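Total RNA from 10 whole mouse lungs was hybridised to single-colour arrays, 4 control and 6 smoke. The deposited intensities are the authors' processed signal per probe set on a linear scale. The trimmed mean of each array was 500.0, so arrays had been scaled to a common level before deposit. How probes were summarised, and with which program, is not given in the sources used here. From these values 64 control probe sets were left out, 1 zero was set to the smallest positive value, and values were put on the log2 scale, quantile normalized and floored at an intensity of 15.8, the 10th percentile. Of 45101 probe sets, 27022 were tested, the brightest 60% by their mean. Genes are represented by their brightest probe set with 1 symbol in the platform annotation, and the GRCm38.p6 table updated 0 symbols. Groups were compared in R 4.3.3 with limma 3.58.1 (linear model with a variance trend, two-sided), with Benjamini-Hochberg adjustment over all probe sets tested and a threshold of 0.05. Changes are smoke minus control on the log2 scale, with SE and 95% intervals. Exact two-sided permutation tests used all 210 splits of the 10 arrays. The fit was tested on simulated data. Pairwise correlations of arrays ran from 0.747 to 0.975, and no 2 arrays were identical. Replicate numbers were not used to pair the groups in the main fit, and whether they mark pairs is not known. Genes named from each list were those past the threshold, up to 4 by p, and otherwise its first by p (4 for the club and regulator lists, up to 2 for others). Genes most like Scgb1a1 and Cyp2f2 were the 5 highest by level and 3 by deviation, and the genes of the Cyp4b1 plot were chosen after their values were seen. The 10 genes and all lists were chosen with earlier results of these data known. Alternatives covered scaling, filter, floor, variance trend, array weights, covariates, omitted arrays and probe set choice. Plots used Python 3.11.15 and matplotlib 3.10.9.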

Additional observations from a re-analysis of the deposited data

Results flagged for a closer look

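Of 48 groups of 4 or 6 arrays examined, 7 held an array set apart from the others by Dixon's test at the 95% level, which chance alone gives in about 1 of 20 groups. The groups reuse the same 10 arrays and hold correlated genes, such as Scgb3a2 and Aldh1a7 (r = 0.90). The flags are therefore not independent, and their number cannot show an excess. Smoke replicate 1 was the low array for Aldh1a7, at a log2 intensity of 11.13, and for Scgb3a2, at 13.73. The mean of the alveolar type 2 cell markers was also low on smoke replicate 1, at 11.39. That array had the highest actin ratio, 31.6, but its Gapdh ratio, 4.76, was not raised over the controls, at 4.82 to 5.89. For Cyp2f2, control replicate 2 was low at 13.78, within a control range of 0.11 log2 units. The mean of the alveolar type 1 cell markers was high on control replicate 1, at 12.46. The mean of the thyroid and oesophagus markers was high on control replicate 1, at 9.78, and on smoke replicate 5, at 9.82, beside 6.30 to 7.34 on the other arrays.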

How the results depend on the processing

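Scgb3a1, Scgb3a2, Cyp2f2 and Aldh1a7 stayed above 0 and uncalled, and Cyp4b1 stayed below 0, under every alternative run. Cyp4b1 passed in 2 of them, at -0.54 both without smoke arrays 5 and 6 and with a replicate block, so that 1 of the 10 genes was lower. The block keeps only numbers found in both groups and so sets aside smoke arrays 5 and 6 too. Deviations of same-numbered arrays from their group means correlated at r from -0.068 to 0.17. Differently numbered arrays were not compared, so whether the numbers pair the arrays was not settled. Both settings turned Cbr2 to -0.17 and Bpifa1 to -0.82. Array weights turned Scgb1a1 to -0.0039, Hp to 0.15 and Muc5b to -0.29. Hp was 0.030 with Xist, 0.035 with the actin ratio and 0.16 with ciliated markers as a covariate. Without smoke arrays 1 and 2, Hp was 0.17 and Muc5b -0.23. Leaving out 1 array at a time gave 0.010 to 0.058 for Scgb1a1, -0.17 to 0.48 for Cbr2, -0.11 to 0.13 for Hp, -0.32 to 0.70 for Bpifa1, -0.16 to 0.29 for Muc5b and -0.44 to -0.28 for Cyp4b1, none called. The causes were not tested. Without smoke arrays 5 and 6 the genes lower were 3 on the other club list and 1 each on the acute phase, regulator, type 1, macrophage and heart lists, with 1 basal marker higher. Lower neutrophil markers numbered 1 to 4 over single omissions. Over all genes, 3 were higher and 94 lower, against 422 and 325 without smoke arrays 5 and 6, 421 and 341 with the block, 151 and 220 with the actin ratio, 41 and 142 with array weights, and 461 and 454 by the rule of the series' design text, which states no adjustment of p. Single omissions gave 1 to 6 higher and 58 to 97 lower. The exact permutation test called 0 and 0 after adjustment, with 1397 at an unadjusted p under 0.05, where limma had 1367. Alternatives for genes below the filter were not run, since all 10 genes passed it. Without detection calls, how signal over background limits dim probe sets was not assessed.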
